A study of Mus musculus with 7 samples.

Results

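Interleukin-10 and the cytokines that signal through gp130, among them interleukin-6 and oncostatin M, share the transcription factor STAT3. Their 10 genes examined here were the cytokine genes Il10, Il6 and Osm, the receptor genes Il10ra, Il10rb, Il6ra and Il6st, Stat3 itself, and Socs3 and Sbno2, which STAT3 induces. Each gene was represented by its brightest probe set with 1 annotated symbol, and all 10 were measured among 22180 genes. They were compared between colon macrophages of Rictorfl/fl LysM+/cre mice (4 arrays) and Rictorfl/fl LysM+/+ mice (3 arrays). Both genotypes carried floxed alleles of Rictor, a subunit of the kinase complex mTORC2, and the LysM+/cre mice also had 1 copy of cre inserted at Lyz2 (LysM), a gene of macrophages and neutrophils. All mice had drunk 5% dextran sulphate sodium (DSS), which injures the colon epithelium, for 5 days and plain water for 3 days. Cells with CD45, CD11b, CD64 and MHC class II but without Ly6C were sorted from the lamina propria. No mice with cre but without floxed alleles were analysed here, so loss of Rictor, cre itself and its insertion into Lyz2 cannot be told apart. How many mice gave an array is not stated, so p-values measure only the spread between these samples.

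Interleukin-10 binds a receptor of IL-10Rα and IL-10Rβ, and interleukin-6 binds IL-6Rα and then gp130, the product of Il6st. Oncostatin M also uses gp130. These receptors activate JAK kinases, which phosphorylate STAT3. In macrophages the outcome differs by receptor. SOCS3, itself induced by STAT3, binds gp130 and shortens its signal, whereas IL-10 receptor signalling is not curbed in this way and restrains inflammatory cytokines. SBNO2 is a co-repressor of NF-κB-driven genes downstream of interleukin-10. Mice that lack interleukin-10 or its receptor develop colitis, and intestinal macrophages are among the cells that need this receptor.

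Signal is given on the log2 scale, as the authors normalized it between arrays. Array medians lay between 5.16 and 5.22, and correlations between array profiles ran from 0.972 to 0.982 inside a genotype and from 0.968 to 0.977 across genotypes. On every array all 10 genes lay above the median probe set, at 5.19. Rictor averaged 7.88 ± 0.25 on LysM+/cre arrays and 7.76 ± 0.030 on LysM+/+ arrays (SD, n = 4 and 3). Which exons this probe set reads is not stated, so the value does not check the labels. Lyz2, where cre is inserted, averaged 10.08 ± 0.22 with cre and 10.20 ± 0.14 without (SD, unadjusted p = 0.365, limma), with overlap. Mean signal of the 6 genes of the sorting gate lay between 11.6 and 12.2 on LysM+/cre arrays and at 11.7 on LysM+/+ arrays, and that of 10 macrophage genes at 10.6 to 11.0 and 10.7 to 11.1. T and NK cell genes averaged 4.80 to 4.86 and 4.83 to 4.94, below the median probe set. Fibroblast and muscle genes averaged 6.88 to 7.44 with cre and 7.45 to 7.65 without, above it. Epithelial genes, at 7.16 to 8.17 and 6.90 to 8.41, were above it too. Of the other lists, only mast cell and eosinophil genes averaged below it. Marker scores, the mean deviation of a list from its mean over the 7 arrays, differed between arrays for other cell types. The fibroblast and muscle score ran from -0.40 to 0.16 with cre and from 0.17 to 0.37 without. These ranges did not overlap, but the nearest arrays, number 2 of each genotype, had 0.159 and 0.169. Of its 12 genes 10 were lower with cre, beside 10783 of all 22180 genes. At an unadjusted limma p under 0.05, 4 were lower and 0 higher, and only Dcn (-1.38, log2) did not overlap. The collagen genes Col1a1, Col1a2 and Col3a1 differed by 0.037, -0.032 and 0.17. The neutrophil score ran from -0.45 to 1.42 and from -1.24 to 0.47, with 12 of 14 genes higher with cre. No marker is listed at 0. The monocyte score ran from -0.48 to 1.09 and from -0.85 to 0.12, with 3 of 4 genes higher with cre, among them Ly6c2 (2.13-fold, unadjusted p = 0.0323, limma) in cells gated as lacking Ly6C. Of the gate genes, Fcgr1, which encodes CD64, was 1.96-fold higher (unadjusted p = 0.00722, limma) and Itgam, which encodes CD11b, 1.44-fold higher (unadjusted p = 0.0297, limma). The part of the monocyte genes in the results was not tested. LysM+/+ array 2 had the lowest neutrophil score. The epithelial score ran from -0.54 to 0.46 with cre and from -0.80 to 0.71 without. Lower with cre were 8 of 9 epithelial, 5 of 6 endothelial, 4 of 5 dendritic and 6 of 8 T and NK cell genes. Higher were 4 of 5 B and plasma cell genes and 5 of 8 mast cell and eosinophil genes. The scores of these lists overlapped between genotypes.

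Promoters of the STAT3-induced genes and of Il6 are shown because the results below turn on these transcripts. They are the 250 bases before an annotated start in RefSeq on GRCm38.p6, which covered 6 of the 10 genes in 8 windows. Capitals mark TTCNNNGAA, the palindromic core of STAT binding sites, in the Socs3 and Sbno2 lines. In the Il6 line they mark GGGATTTTCC, an NF-κB type site, and TGAGTCA, the AP-1 site. All were searched on both strands, the NF-κB type with any base at the fifth position, and the matches do not overlap. Socs3 lies at chr11:117969367-117969616 (minus strand), Sbno2 at chr10:80102703-80102952 and chr10:80101188-80101437 (minus strand, separate starts), and Il6 at chr5:30012864-30013113 (plus strand).
Socs3: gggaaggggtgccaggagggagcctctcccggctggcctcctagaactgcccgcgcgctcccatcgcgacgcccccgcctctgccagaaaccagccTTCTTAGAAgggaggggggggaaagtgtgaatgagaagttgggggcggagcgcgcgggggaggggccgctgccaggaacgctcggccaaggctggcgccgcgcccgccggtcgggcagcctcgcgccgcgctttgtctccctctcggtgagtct
Sbno2, upstream start: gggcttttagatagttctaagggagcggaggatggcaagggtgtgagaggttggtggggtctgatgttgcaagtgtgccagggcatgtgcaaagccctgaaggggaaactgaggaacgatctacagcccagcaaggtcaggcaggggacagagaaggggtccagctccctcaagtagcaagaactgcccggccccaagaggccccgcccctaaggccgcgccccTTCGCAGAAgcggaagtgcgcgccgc
Sbno2, downstream start: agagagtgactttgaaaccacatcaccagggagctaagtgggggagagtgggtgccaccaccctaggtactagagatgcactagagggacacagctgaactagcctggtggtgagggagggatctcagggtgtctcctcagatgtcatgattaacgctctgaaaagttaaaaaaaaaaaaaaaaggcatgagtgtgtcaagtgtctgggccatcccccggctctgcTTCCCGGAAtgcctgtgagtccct
Il6: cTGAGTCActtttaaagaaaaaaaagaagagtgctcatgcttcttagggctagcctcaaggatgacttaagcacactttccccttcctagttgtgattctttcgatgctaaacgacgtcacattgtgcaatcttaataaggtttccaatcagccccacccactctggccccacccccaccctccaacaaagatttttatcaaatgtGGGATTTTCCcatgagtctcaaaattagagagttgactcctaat
Socs3 held TTCTTAGAA 154 to 146 bases before its start. Sbno2 held TTCGCAGAA 26 to 18 bases before its upstream start and TTCCCGGAA 24 to 16 bases before the next. The window of Sbno2's remaining start and those of Il6, Il6ra, Il6st and Stat3 held no TTCNNNGAA. This motif was in 7.02% of all 32851 windows and in at least 1 window of 7.82% of the 16990 tested genes with a window. The NF-κB type was in 0.356% of windows, and in Il6 it lay 44 to 35 bases before the start. TGAGTCA was in 4.46% of windows, and in Il6 it lay 249 to 243 bases before the start. A match describes letters only.

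The design sets macrophages with cre against macrophages without it, all from inflamed colon. Sbno2 gave the clearest separation of the 10 genes, Stat3 was slightly lower with cre, Il6 was lower with overlap, and Il10, its receptors and Socs3 were close between genotypes. No gene of the table passed an adjusted p of 0.05 in limma (0% called), and 2549 genes, 11.5% of those tested, had an unadjusted p under 0.05. With array medians set equal these were 1786 higher and 858 lower, against 1456 higher and 1093 lower as deposited. At that unadjusted threshold 3 of the 10 genes were lower with cre (Sbno2, Il6 and Stat3), beside 4.93% of all genes, and 0 were higher, beside 6.56%. For 2 of the 10, Sbno2 and Stat3, every array with cre was below every array without, as for 3.56% of all genes. The opposite order held for 0 of the 10 and for 5.23% of all genes (8.79% in either direction). The median difference was -0.079 over the 10 genes and 0.0044 over all genes.

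**Figure D1:**
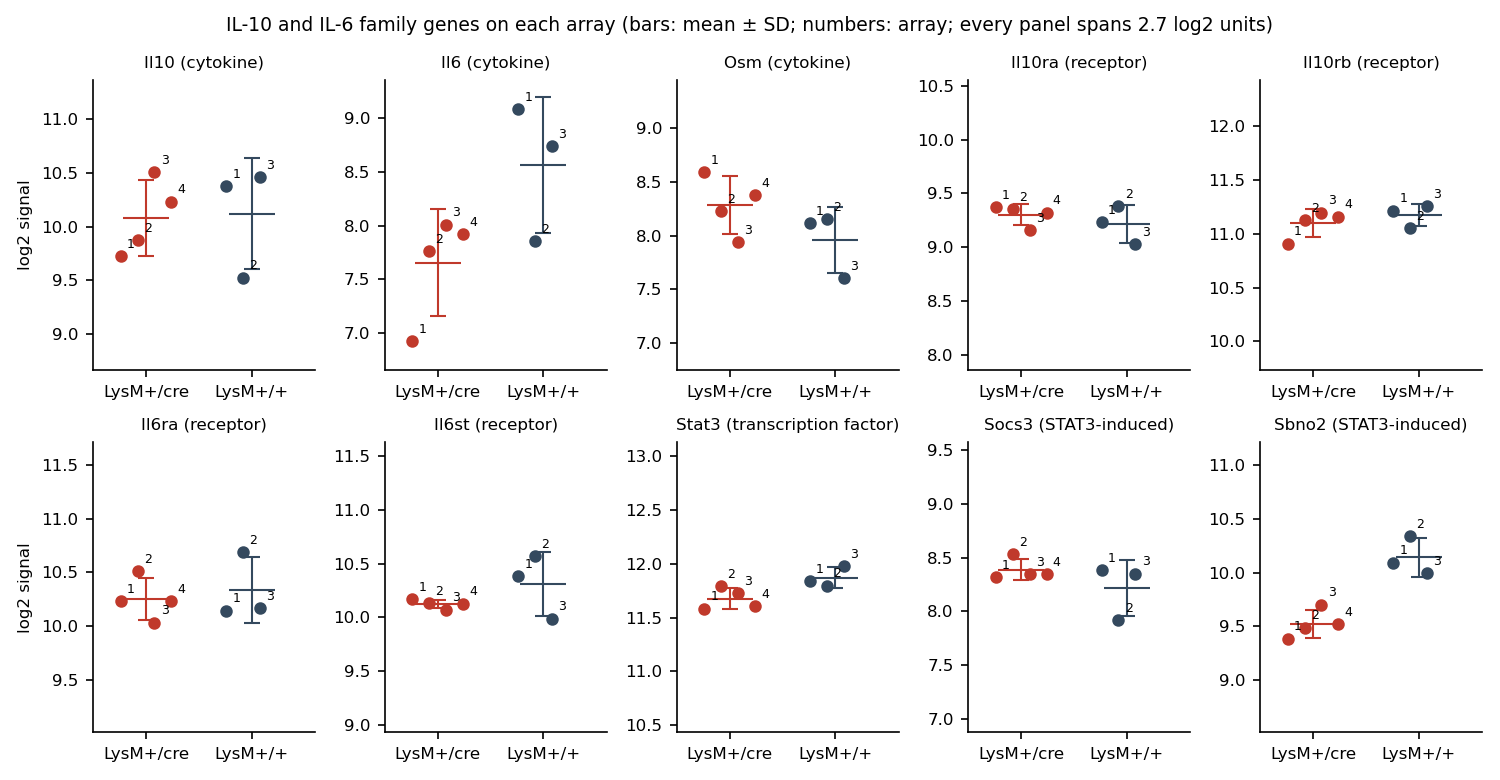
Log2 signal of each gene (vertical axis, every panel spanning the same range) on the LysM+/cre arrays (red, left) and the LysM+/+ arrays (blue, right). Points are arrays, numbered within the genotype, and bars are mean ± SD; the Sbno2 points of the genotypes are apart, from 9.39 to 9.70 with cre and from 9.99 to 10.34 without.

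Among the cytokines, Il10 had 9.73, 9.87, 10.50 and 10.23 on LysM+/cre arrays and 10.38, 9.52 and 10.46 on LysM+/+ arrays. The genotypes overlapped over nearly their whole range, and LysM+/+ array 2 was the lowest of all. The difference was -0.038 ± 0.28 (SE, limma adjusted p = 0.967), with a 95% interval from -0.71 to 0.63. The difference was smaller than the spread between arrays, but the interval includes differences of 1.5-fold either way. Without LysM+/+ array 2 the difference was -0.34, and without LysM+/+ array 3 it was 0.13.

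Il6, a pro-inflammatory cytokine made by macrophages and by stromal cells, had 6.93, 7.76, 8.01 and 7.92 with cre and 9.08, 7.86 and 8.74 without. LysM+/+ array 2 lay among the LysM+/cre arrays, and the other LysM+/+ arrays lay above all of them. The difference was -0.90 ± 0.36 (SE), 1.87-fold lower, at an unadjusted p of 0.0428 and an adjusted p of 0.427 (limma). It ran from -1.26 without LysM+/+ array 2 to -0.64 without LysM+/+ array 1. In bulk RNA, fewer cells of a type and less RNA per cell cannot be told apart. An unadjusted p under 0.05 held in 9 of 17 alternatives and in 2 of the 7 that leave out an array. The fibroblast and muscle score was also lower with cre, but it did not follow Il6 on every array. LysM+/cre array 3 had the highest Il6 with cre and a score of -0.33, and array 2 a lower Il6 and a score of 0.16. That score separated the genotypes, so a fit with it as a covariate cannot fully tell score from genotype. In this fit the difference was -0.34 ± 0.58 (SE). With the neutrophil score it was -1.19 ± 0.26 (SE, unadjusted p = 0.00393, limma).

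Osm encodes oncostatin M, a gp130 cytokine of myeloid cells raised in colitis. It had 8.59, 8.23, 7.94 and 8.37 with cre and 8.11, 8.15 and 7.61 without. LysM+/cre array 3 lay below LysM+/+ arrays 1 and 2, so the genotypes overlapped. The difference was 0.32 ± 0.19 (SE, adjusted p = 0.55, limma), and it was 0.15 without LysM+/+ array 3. With the neutrophil score as a covariate it was 0.44 ± 0.18 (SE, unadjusted p = 0.0453, limma).

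The receptor genes showed differences within the spread of arrays. Il10ra, the ligand-binding chain of the interleukin-10 receptor, had 9.37, 9.35, 9.16 and 9.32 with cre and 9.24, 9.38 and 9.03 without (difference 0.086, 95% interval -0.15 to 0.32). Il10rb, the accessory chain that the interleukin-22 receptor also uses, had 10.91, 11.13, 11.20 and 11.16 with cre and 11.22, 11.05 and 11.26 without (difference -0.077, 95% interval -0.30 to 0.14). For both genes the genotypes overlapped, and a difference of 1.5-fold lies outside both intervals. Without LysM+/+ array 2 the difference was 0.17 for Il10ra and -0.14 for Il10rb, without LysM+/+ array 3 it was -0.0079 and -0.037, and without LysM+/cre array 1 that of Il10rb was -0.014.

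Il6ra, the interleukin-6 binding chain, had 10.24, 10.51, 10.03 and 10.24 with cre and 10.14, 10.69 and 10.17 without. LysM+/+ array 2 was the highest, and without it the difference of -0.080 ± 0.17 (SE) became 0.098. Il6st had 10.17, 10.13, 10.07 and 10.13 with cre and 10.38, 10.57 and 9.99 without. Its LysM+/cre arrays lay within 0.1 of each other, between the LysM+/+ arrays. The difference was -0.19 ± 0.13 (SE, adjusted p = 0.609, limma). It was -0.35 without LysM+/+ array 3 (unadjusted p = 0.00384, limma) and -0.060 without LysM+/+ array 2.

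Stat3 had 11.58, 11.79, 11.72 and 11.61 with cre and 11.84, 11.80 and 11.98 without. The genotypes did not overlap, but LysM+/cre array 2 and LysM+/+ array 2 were all but equal. The difference was -0.19 ± 0.079 (SE), 1.14-fold lower, at an unadjusted p of 0.0451 and an adjusted p of 0.43 (limma). Among the 17 alternatives an unadjusted p under 0.05 held in 6. With array medians set equal the difference was -0.17 at an unadjusted limma p of 0.0698, and leaving out single arrays gave -0.23 to -0.14. With the fibroblast and muscle score as a covariate it was -0.073. These are transcript values and say nothing of STAT3 phosphorylation.

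Of the STAT3-induced genes, Socs3 had 8.32, 8.53, 8.35 and 8.35 with cre and 8.38, 7.92 and 8.35 without. Apart from LysM+/+ array 2, the lowest, and LysM+/cre array 2, the highest, the arrays of both genotypes lay close together. The difference was 0.17 ± 0.13 (SE, adjusted p = 0.629, limma) and 0.020 without LysM+/+ array 2. A dimmer second probe set of Socs3 had 7.41, 7.36, 7.76 and 7.40 with cre and 7.68, 6.97 and 7.38 without, a difference of 0.14 ± 0.18 (SE).

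Sbno2 had 9.39, 9.49, 9.70 and 9.52 with cre and 10.09, 10.34 and 9.99 without. Every LysM+/cre array lay below every LysM+/+ array. The difference was -0.62 ± 0.11 (SE), 1.53-fold lower, with a 95% interval from -0.88 to -0.36. Its unadjusted p of 0.000848 ranked 53 of 22180, and its adjusted p was 0.328 (limma). Leaving out single arrays gave differences of -0.69 to -0.52. It was -0.68 ± 0.19 (SE) with the fibroblast and muscle score as a covariate and -0.63 ± 0.13 (SE) with the neutrophil score. The unadjusted p stayed under 0.05 in all 17 other settings, with adjusted p-values from 0.184 to 0.773.

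**Figure D2:**
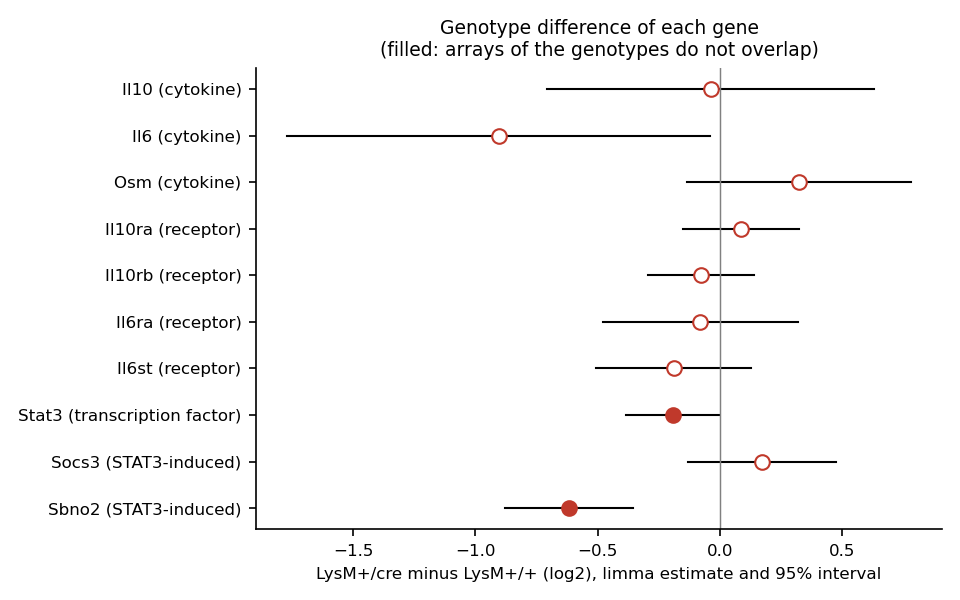
Genotype difference of each gene (LysM+/cre minus LysM+/+, log2, horizontal axis) with its 95% interval from limma. Filled points mark genes whose arrays do not overlap between genotypes, Stat3 and Sbno2; the intervals of Il6, Stat3 and Sbno2 lie below 0.

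The deviations of single arrays were shared by several of these genes. LysM+/+ array 2 had the lowest signal of the 7 arrays for Il10 and Socs3 and the highest for Il6ra, Il6st, Il10ra and Sbno2. LysM+/cre array 1 had the lowest signal for Il6, Il10rb, Stat3 and Sbno2 and the highest for Osm. LysM+/+ array 3 had the lowest for Osm, Il10ra and Il6st and the highest for Il10rb and Stat3. Such ranks also carry the genotype difference, as for Stat3 and Sbno2, whose genotypes did not overlap. LysM+/+ array 2 was also the lowest for the acute-phase gene Saa3, at 6.43, where the other arrays ran from 11.64 to 13.61. The acute-phase protein gene Lrg1 was at 5.60 there and at 6.53 to 8.84 elsewhere. Both genes were singled out after their values were seen, and the part of this array's profile in the results above was not tested beyond leaving it out.

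**Figure D3:**
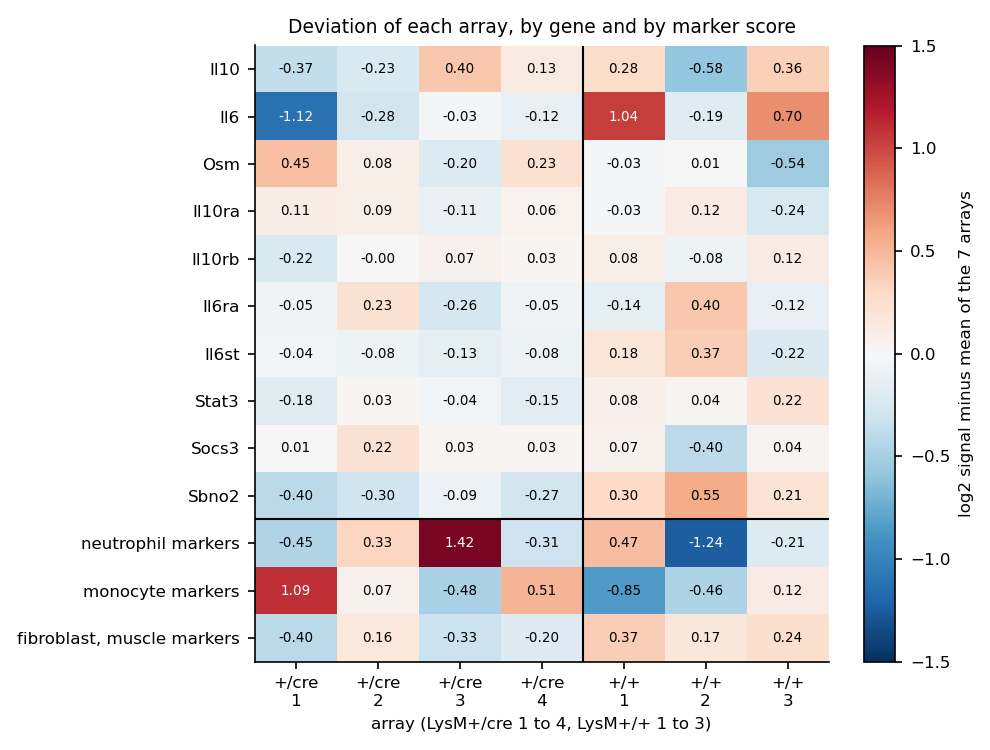
Deviation of each array (columns, LysM+/cre left of the line, LysM+/+ right) from the mean of the 7 arrays, in log2 units, for the 10 genes and for 3 marker scores (rows). LysM+/+ array 2 has the lowest Il10, at -0.58, with the lowest neutrophil score, at -1.24, and the highest Sbno2, at 0.55.

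Differences between a pair of genes on the same array were compared next, a comparison added after the values were seen. The size of such a difference on 1 array reflects the probe sets too, so only its change between genotypes is read. Il6 minus Il10 was -2.80, -2.11, -2.49 and -2.31 with cre and -1.30, -1.67 and -1.72 without. Relative to Il10, Il6 was thus lower on every LysM+/cre array than on any LysM+/+ array, with a mean difference of -0.87 that ran from -0.97 to -0.73 over the sets of 6 arrays. The exact permutation test gave p = 0.0571 (two-sided), the smallest that 4 against 3 arrays allow and the value of every pair without overlap. Sbno2 minus Socs3 was 1.07, 0.96, 1.36 and 1.17 with cre and 1.71, 2.42 and 1.64 without. The STAT3-induced genes thus stood apart from each other between genotypes by -0.79, also without overlap (exact permutation p = 0.0571), and by -0.54 without LysM+/+ array 2. With the other Socs3 probe set the value was -0.76. Of all 45 such pairs, which share genes, 11 did not overlap, 6 of them with Sbno2 and 2 with Il6. The 2 pairs described above were picked from these 11, so their exact p was fixed by that choice and is no further support. No marker score was used as a covariate for a pair. Over the pairs of all 22180 genes 12.2% did not overlap, and a pair also carries the separation of its single genes. The smallest adjusted p over the 45 was 0.234 (exact permutation).

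Of the other genes of the pathway, 74 of 79 listed were measured. At an unadjusted p under 0.05 there were 3 higher with cre, beside 6.56% of all genes, and 8 lower, beside 4.93%. Of the 74, 0 passed the adjustment over all genes. These 11 of 74 stand beside 11.5% of all genes. The genotypes did not overlap for 4 genes higher with cre and 4 lower, beside 5.23% and 3.56% of all genes. The list had a median difference of 0.024, with 42 genes higher and 32 lower. With the fibroblast and muscle score as a covariate 1 of the 74, Ptpn6, stayed under 0.05, and 1402 of all 22180 genes were under it. That score itself separated the genotypes, so this fit cannot fully tell score from genotype, and a lost call is not read further. All values named next are log2 differences, LysM+/cre minus LysM+/+, and the p-values are limma's.

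Of 6 other cytokines that use gp130 or belong to the interleukin-27 group, 5 were higher and 1 lower, and 0 reached an unadjusted p under 0.05 (median 0.072). The smallest p-values belonged to the interleukin-27 subunit genes Il27 (0.30) and Ebi3 (-0.20) and to Clcf1 (0.27), which was -0.14 without LysM+/+ array 2. Il27 was at 0.18 without LysM+/+ array 2, and Ebi3 at -0.073 without LysM+/cre array 3. Of 4 further receptor genes 3 were lower (median -0.44). Cntfr, the receptor chain for ciliary neurotrophic factor, was at -0.25 ± 0.096 (SE, unadjusted p = 0.035). Its means were low, 5.21 with cre and 5.46 without, near the median probe set at 5.19. Lifr, the leukaemia inhibitory factor receptor, was at -0.63, and at -0.28 without LysM+/+ array 2. Osmr, the oncostatin M receptor of stromal cells, was at -0.82, at 0.073 with the fibroblast and muscle score as a covariate, at -1.45 without LysM+/+ array 2 and at -0.31 without LysM+/+ array 1. Of 9 other interleukin-10 family and receptor genes, 7 were higher and 0 reached the threshold, led by Il20ra (0.19), Ifnlr1 (0.17) and Il20rb (-0.10). When single arrays were left out their values nearest 0 were 0.094, 0.11 and -0.058. Except for Il20rb, all genes of this interleukin-10 family list were dim, with means below the median probe set, at 5.19, in both genotypes.

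Among 8 JAK and other STAT genes, Stat6, which transmits interleukin-4 signals, was higher by 0.30 ± 0.10 (SE, unadjusted p = 0.021). Jak1, a kinase bound to gp130 and to IL-10Rα, was at -0.26 ± 0.11 (SE, unadjusted p = 0.0482), and Stat5b was at 0.20. Without LysM+/+ array 3 Jak1 was at -0.15, and with the fibroblast and muscle score as a covariate Stat6 was at 0.15. Of 8 genes that limit or process the signal, 3 were under the threshold, beside 11.5% of all genes. Ptpn6, the phosphatase SHP-1, had 9.92, 9.88, 9.59 and 9.83 with cre and 9.52, 9.08 and 8.98 without. Its genotypes did not overlap, with a difference of 0.61 ± 0.15 (SE, unadjusted p = 0.00442, adjusted p = 0.354), and all 17 other settings kept an unadjusted p under 0.05. Ptpn11, the phosphatase SHP-2 that docks on gp130, was at 0.43 ± 0.13 (SE), with no overlap, and at 0.28 without LysM+/+ array 3. Pias3, an inhibitor of STAT3 binding to DNA, was at -0.25 ± 0.078 (SE), with no overlap.

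Of 15 other genes that STAT3 can induce, 7 were higher and 8 lower (median -0.048). At an unadjusted p under 0.05, 3 were lower and 0 higher, beside 4.93% and 6.56% of all genes. Cebpd, a C/EBP transcription factor, had 6.31, 7.06, 6.72 and 6.66 with cre and 7.82, 7.81 and 7.39 without. Its genotypes did not overlap, with a difference of -0.99 ± 0.19 (SE, unadjusted p = 0.00142, adjusted p = 0.328). With the fibroblast and muscle score as a covariate this was -0.51. The adhesion molecule gene Icam1 was at -0.53 ± 0.14 (SE), without overlap, and the transcription factor gene Irf1 at -0.41 ± 0.17 (SE). With the fibroblast and muscle score as a covariate Icam1 was at -0.42 and Irf1 at -0.082, neither at an unadjusted p under 0.05. TTCNNNGAA was in a promoter window of 6 of the 62 listed pathway genes with a window (Bcl6, Icam1, Il19, Irf1, Tnfrsf1b and Zfp36), beside 7.82% of all tested genes. Further STAT3-induced genes, picked after their values were seen, were close to 0: Pim1 at 0.0036, Junb at -0.049, Mcl1 at 0.021 and Bcl2l1 at 0.0011. The rest of this list ran from Myc at -0.32 to Saa3 at 1.68 ± 1.66 (SE), with Lrg1 at 0.73 and Hif1a at 0.47. Cebpb was at 0.19, without overlap.

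Of 10 genes that interleukin-10 induces in macrophages, 6 were higher and 4 lower (median 0.15). Cd163, the haemoglobin scavenger receptor, was at -0.90 ± 0.38 (SE, unadjusted p = 0.0485), without overlap, at -0.20 with the fibroblast and muscle score as a covariate and at -0.59 without LysM+/cre array 1. Hmox1, haem oxygenase, was at -1.04 and the repressor gene Nfil3 at 0.39, or 0.21 without LysM+/+ array 2. Of 14 inflammatory genes that interleukin-10 represses, 6 were higher and 8 lower (median -0.15). The chemokine gene Cxcl10 was at -0.86 ± 0.32 (SE, unadjusted p = 0.0303), Ccl3 at -0.54 and Ptgs2, the inducible cyclooxygenase, at 0.70. Only Ptgs2 of these did not overlap. Without LysM+/+ array 2 Ptgs2 was at 0.24, and without LysM+/+ array 3 Cxcl10 was at -0.54. With the fibroblast and muscle score as a covariate Cxcl10 was at -0.44. The cytokine genes of this list, Tnf (-0.37), Il1b (0.088), Il12b (-0.31) and Il23a (0.52) among them, were looked at outside the rule for naming genes, and these 4 overlapped between genotypes. Il23a had 8.13, 8.37, 8.43 and 9.03 with cre and 8.84, 5.98 and 9.10 without. Only LysM+/+ array 2 lay below the LysM+/cre arrays.

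**Figure D4:**
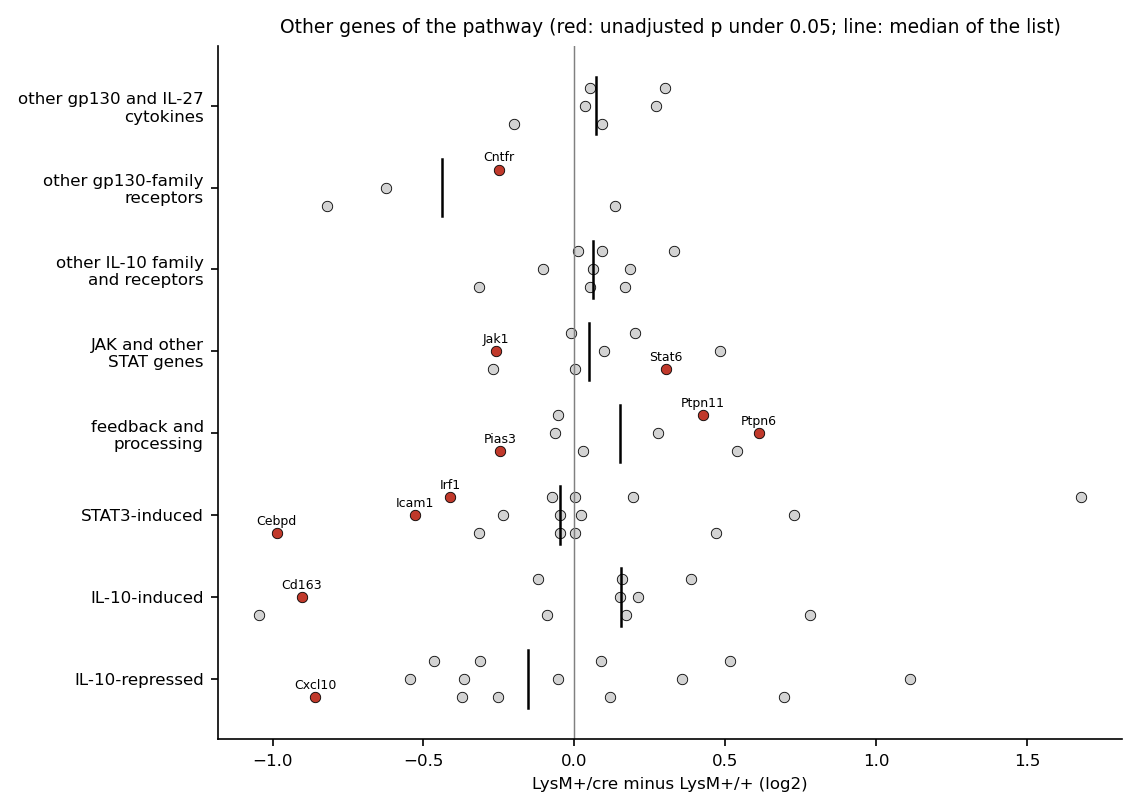
Genotype difference (LysM+/cre minus LysM+/+, log2, horizontal axis) of the 74 other pathway genes, by list (rows). Points are genes, red where the unadjusted limma p was under 0.05, and black lines are list medians; Cebpd at -0.99 and Ptpn6 at 0.61 are among the 11 red points.

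Likeness was measured as the Pearson correlation of log2 signals over the 7 arrays, among 11089 genes brighter than the median gene. It is a description that includes the genotype difference, and the highest of so many values is high by choice. Most like Sbno2 were Ddx3x, an RNA helicase gene (r = 0.981), the metalloprotease gene Adam33 (r = 0.975) and Calcrl, a receptor for adrenomedullin and CGRP (r = 0.970). Ddx3x ordered the 7 arrays exactly as Sbno2 did and averaged 8.53 with cre and 8.96 without. Most like Stat3 were Kansl1l (r = 0.984), Zfp687 (r = 0.981) and Zfp397 (r = 0.974). Most like Il6 were Gca (r = 0.995), Zfp960 (r = 0.991) and Olfr433 (r = 0.984).

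**Figure D5:**
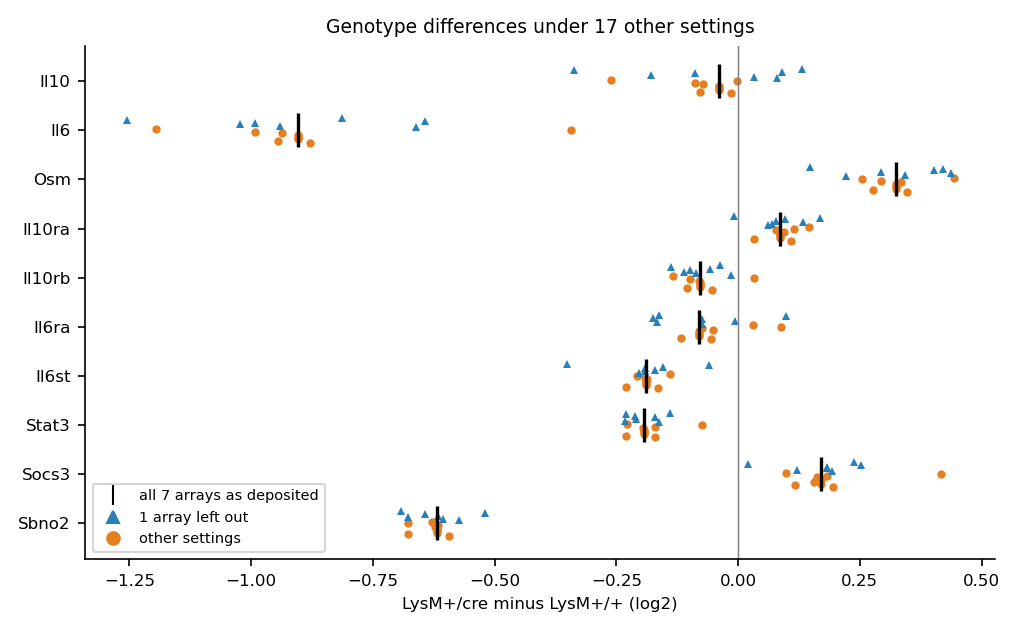
Genotype difference of each gene (LysM+/cre minus LysM+/+, log2, horizontal axis) with all arrays as deposited (black lines), without 1 array (triangles) and under other settings (circles). The Sbno2 values stay between -0.69 and -0.52, while those of Il10 lie on both sides of 0, from -0.34 to 0.13.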

How the data were processed

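RNA of macrophages sorted from the inflamed colon was measured on Affymetrix Mouse Gene 2.0 ST arrays, with an array for each sample. The deposited values are log2 signals per probe set, which, per the labels and the design text, came from Affymetrix Expression Console. The submitters' processing notes also name Transcriptome Analysis Console. No source used here gives the summarisation, background correction or versions. Array medians lay between 5.16 and 5.22, so the authors had scaled the arrays, which hides any shift shared by all genes. Of the probe sets in the deposited log2 table, 46.4%, among them those of Il6ra and Socs3, carried exactly the same value on at least 2 arrays.

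Names came from GEO's platform annotation. Those with exactly 1 symbol (23521 of 41345) were kept, and the one of highest mean over the 7 arrays stood for each of 22180 genes. Of these, 21994 matched a RefSeq gene by Entrez identifier. The genotype difference (LysM+/cre minus LysM+/+) was fitted by lmFit and eBayes of limma 3.58.1 under R 4.3.3, two-sided, without covariates or a filter. P-values were adjusted by Benjamini-Hochberg over all genes, at a threshold of 0.05. Unadjusted p-values under 0.05 and arrays that do not overlap were counted beside it. Differences between genes on the same array were compared with exact permutation tests (scipy 1.17.1) and adjusted over all 45 pairs, a comparison added after the values were seen. The code was tested on simulated data. The labels name no batch. The files give no depth or background signal.

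The 10 genes, the gene lists and the tests were chosen with earlier results of these data known. All 10 genes were named, with the 3 genes of smallest unadjusted p of each other list and any further one under 0.05. The 3 genes most alike were named for each of the 10 genes at an unadjusted p under 0.05. Alternatives were other scalings, probe set rules, variance models and weights, a filter on dim genes, a block for the replicate number, marker scores as covariates, and each array left out. The replicate numbers were not treated as pairs, since the correlations of same-numbered arrays' deviations were -0.11, 0.12 and 0.10. Promoter sequences are RefSeq's on GRCm38.p6. Figures were drawn with matplotlib 3.10.9.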

Additional observations from a re-analysis of the deposited data

Results flagged for a closer look

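The signal of Socs3 on LysM+/cre array 2, at 8.53, stood far above those of the other LysM+/cre arrays, at 8.32, 8.35 and 8.35, by Dixon's criterion for 4 samples. Of the 10 genes it was the 1 that met the criterion, which chance meets in about 1 of 20 groups. Groups of 3 were not examined in this way.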

How the results depend on the processing

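Sbno2 kept its direction and an unadjusted p under 0.05 in 17 of 17 alternatives. Of the 10 genes, 3 were at an unadjusted p under 0.05 as deposited and 1 with the replicate block or the fibroblast and muscle score, 4 with the neutrophil score (Osm added), 2 or 3 in the other settings on all arrays, and 1 to 3 when 1 array was left out (1 without LysM+/cre array 1 or 4 or without LysM+/+ array 1). With the replicate block Il6 was at -0.99 and Stat3 at -0.17, neither under 0.05, and no other of the 10 changed its call; 2139 of all genes were under 0.05. Not every array correlated best with its own number. Il10 ran from -0.34 to 0.13 over the sets of 6 arrays and was at 0.081 and 0.032 without LysM+/cre arrays 1 and 2, and at 0.090 and 0.13 without LysM+/+ arrays 1 and 3. Il10ra (-0.0079 without LysM+/+ array 3) ran up to 0.17. Il10rb was at 0.032 and Il6ra at 0.088 with the fibroblast and muscle score. Il6ra was at 0.031 with the neutrophil score and 0.098 without LysM+/+ array 2, and ran down to -0.18. Clcf1 (-0.14 without LysM+/+ array 2, up to 0.56) and Osmr (0.073 with the fibroblast score) also turned. Over all genes, none passed adjustment except 2 without moderation of the variance. The genes with an unadjusted p under 0.05 numbered 1402 with the fibroblast score, 566 of them lower, and 720 were lower without moderation. Leaving out 1 array gave 1693 to 2779 genes, 717 to 1222 of them lower, the fewest without LysM+/cre array 1. The pathway count of 11 was 6 without moderation, 1 with the fibroblast score, 17 with the neutrophil score and 5 to 16 when 1 array was left out (5 without LysM+/cre array 1, 7 without LysM+/+ array 3). The cause of these shifts was not tested. No background signal is given, so detection could not be judged.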
